A study of Mus musculus with 8 samples.

Results

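The 10 genes of the AP-1 and immediate early response described here were followed in mouse primary hepatocytes on a soft or a stiff matrix, with or without the coactivators YAP and TAZ. They were the Fos family (Fos, Fosb, Fosl1, Fosl2), the Jun family (Jun, Junb, Jund), and Atf3, Egr1 and Ier3, chosen by gene name as the 10 rows with these symbols among the 56748 genes of the deposited count table. All 10 were among the 14279 genes with enough counts to be tested. RNA was sequenced in 8 libraries, 2 in each of 4 groups. All groups came from C57BL/6J Yap fl/fl; Taz fl/fl mice of 7 to 8 weeks. By the study's methods the line also carried a ROSA26-LSL-tdTomato reporter that Cre switches on. Yap/Taz HepKO (KO) mice had received AAV8-TBG-Cre, in which the thyroxine-binding globulin promoter drives Cre in hepatocytes, and the wild-type (WT) controls, which carry the same floxed alleles, had received AAV8-TBG-Null. Hepatocytes were isolated 10 days later by collagenase perfusion and density gradient, and cultured for 24 h on collagen-coated polyacrylamide hydrogel of 1 kPa (soft) or 20 kPa (stiff). The labels do not say whether the 2 libraries of a group came from separate mice or cultures. The p-values therefore measure only a spread between libraries, which may be technical. That spread was estimated over all 8 libraries and drawn toward the spread of all tested genes.

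AP-1 is a dimer of basic leucine zipper proteins, in which a Jun protein pairs with another Jun, a Fos or an ATF protein and binds a short DNA element in promoters and enhancers. Many of its genes are immediate early genes, transcribed within minutes of a growth factor, cytokine or stress signal without new protein synthesis, and dissociation of liver tissue is itself known to induce them. YAP and TAZ do not bind DNA themselves but act through TEAD factors, and AP-1 and TEAD are known to occupy many enhancers together.

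Library totals ran from 18324083 to 26442310 counts, and a gene without a read could still have a level of 3 counts (95% limit, counting error only), or 0.113 to 0.164 CPM, the counts per 1e6 counts of the library. Replicates of a group varied beyond counting error (chi-square over degrees of freedom 2.62 to 5.45). Yap1 had 1720 to 2913 counts in the WT libraries and 606 to 747 in the KO libraries, and Wwtr1, which encodes TAZ, had 748 to 1325 and 277 to 410, so both were lower in every KO library. Hepatocyte markers, Alb among them, had counts in all libraries, while of the bile duct markers Cftr was at 0 throughout. The study's methods give male mice, whereas the series text gives female mice. Xist had 4818 to 8443 counts in every library and the Y-linked genes Ddx3y, Eif2s3y, Kdm5d and Uty had 0 in every library. By these genes the libraries read as female.

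In WT hepatocytes members of the group differed in opposite directions between stiff and soft hydrogel. Fosl2 and Ier3 rose, by a factor of 1.80 and 1.90, and Fos and Fosb fell, to 0.605 and 0.441 of their level on the soft hydrogel. These 4 passed an adjusted p under 0.05 with an absolute log2 fold change over 0.5 (quasi-likelihood test of edgeR, Benjamini-Hochberg over all tested genes), the limits used for every call here. That is 2 of 10 higher, where 10.0% of all tested genes were called higher, and 2 of 10 lower, where 9.26% were called lower. The median log2 fold change of the 10 genes was -0.19, against -0.01 over all tested genes. In KO hepatocytes none of the 10 was called between stiff and soft, where 0.0140% of all genes were called higher and 0.00700% lower.

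**Figure D1:**
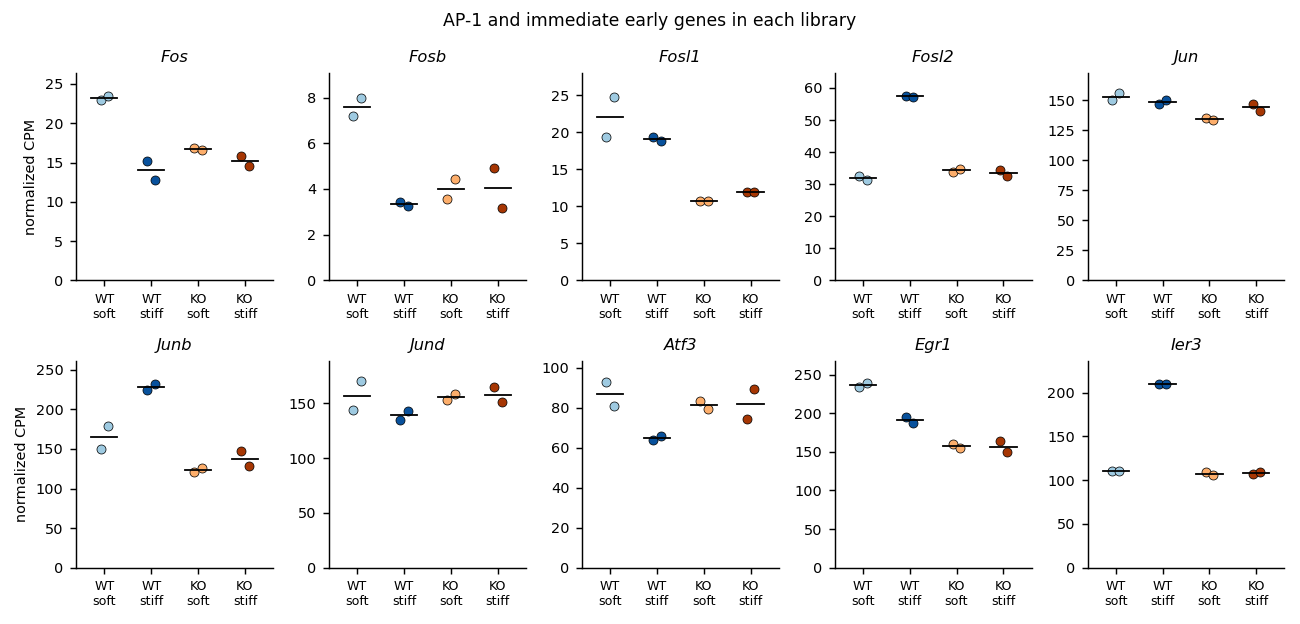
Normalized CPM (vertical axes, each from 0) of the 10 genes in WT and KO hepatocytes on soft and stiff hydrogel. Each point is 1 library and each line the mean of the 2 libraries of a group. Fosl2 and Ier3 are highest in both WT stiff libraries, whereas Fos and Fosb are highest in both WT soft libraries.

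The 250 bases before the annotated start of the 4 genes that were called in WT are shown because pairs of them moved together, and the letters allow the promoters to be compared. They were taken from RefSeq (GRCm38.p6), which held a promoter for 8 of the 10 genes and none for Fosl1 and Egr1. Each is printed 5′ to 3′ on the gene's strand, with TGACG (the cyclic AMP response element half-site, on either strand) and TATAAA (the TATA box, on the gene's strand) in capitals. In GRCm38.p6 the window of Fos lies at chr12:85473640-85473889 on the plus strand, that of Fosb at chr7:19310046-19310295 on the minus strand, that of Fosl2 at chr5:32136222-32136471 on the plus strand and that of Ier3 at chr17:35821463-35821712 on the plus strand.
Fos: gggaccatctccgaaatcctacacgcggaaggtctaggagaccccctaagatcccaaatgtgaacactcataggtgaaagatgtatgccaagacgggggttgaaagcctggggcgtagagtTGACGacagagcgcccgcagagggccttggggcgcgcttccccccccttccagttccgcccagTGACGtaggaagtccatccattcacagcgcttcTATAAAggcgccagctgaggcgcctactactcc
Fosb: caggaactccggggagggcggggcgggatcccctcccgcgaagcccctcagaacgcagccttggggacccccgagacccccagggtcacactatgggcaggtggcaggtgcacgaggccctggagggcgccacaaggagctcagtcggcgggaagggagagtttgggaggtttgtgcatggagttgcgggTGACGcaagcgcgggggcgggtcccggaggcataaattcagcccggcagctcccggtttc
Fosl2: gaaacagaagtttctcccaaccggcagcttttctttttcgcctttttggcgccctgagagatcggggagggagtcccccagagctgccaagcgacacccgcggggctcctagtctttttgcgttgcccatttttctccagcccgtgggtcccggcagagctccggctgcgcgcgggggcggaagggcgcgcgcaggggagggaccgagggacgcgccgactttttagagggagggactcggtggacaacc
Ier3: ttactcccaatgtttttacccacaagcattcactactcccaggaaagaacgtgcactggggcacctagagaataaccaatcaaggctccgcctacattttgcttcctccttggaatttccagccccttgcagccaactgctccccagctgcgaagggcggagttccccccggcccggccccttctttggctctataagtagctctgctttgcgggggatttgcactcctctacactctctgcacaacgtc

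Fos held the half-site 129 and 66 bases before the start and the TATA box at 33 bases, and Fosb held the half-site at 60 bases. The windows of Fosl2 and Ier3 held neither set of letters. Junb, at 106 bases, and Atf3, at 7 bases, also held the half-site, so that 4 of the 8 promoters had it, against 17.8% of 32851 promoters of the same length. In WT, Junb was higher on stiff (log2 fold change 0.48) and Atf3 lower (-0.43), both under the fold limit. Of the 4 genes with the half-site, Fos, Fosb and Atf3 were lower on stiff in WT and Junb was higher. A part of the half-site in these differences was not tested. The GC box, GGGCGG on either strand, stood in 6 of the 8 (Fos, Fosb, Fosl2, Jun, Atf3, Ier3) and in 32.7% of all promoters, and TATAAA in 7.59% of all. The AP-1 element TGANTCA, the full cyclic AMP response element TGACGTCA, which contains the half-site, the CArG box of serum response factor and the TEAD element GGAATG, each sought on both strands, were in none of the 8, and in 6.75%, 1.55%, 1.47% and 12.6% of all promoters. A match is a description of the letters and not a binding site, and the windows reach no enhancer. Elements more than 250 bases before the start, and any of Fosl1 and Egr1, were not searched.

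Fosl2 encodes the Fos-related antigen FRA-2, a Fos protein without the strong activation domain of c-Fos. On the deposited table it lies on chromosome 5 from 32293145 to 32315186 (ENSMUSG00000029135). Gene positions here and below are as deposited. They differ from GRCm38, so they cannot be set against the promoter windows above. It measured 32.4 and 31.3 CPM in the WT soft libraries and 57.4 and 57.3 in the WT stiff libraries. The stiff libraries lay well above the soft ones, with a log2 fold change of 0.85 (standard error, SE, 0.0654, edgeR adjusted p = 6.49e-09). In KO cells Fosl2 measured 33.9 and 34.8 CPM on soft and 34.6 and 32.5 on stiff, so the groups overlapped, and all 4 libraries lay far below WT stiff. The KO log2 fold change was -0.03, with a 95% interval from -0.18 to 0.11. The interaction, the KO effect of stiffness minus the WT effect on the log2 scale, was -0.88 (SE 0.0938, edgeR adjusted p = 9.03e-07).

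Ier3 is an immediate early gene of signal-regulated survival that encodes no DNA-binding factor. It lies on chromosome 17 from 36132576 to 36133815 (ENSMUSG00000003541). In WT it measured 111 and 110 CPM on soft and 210 CPM in both stiff libraries. Its log2 fold change was 0.93 (SE 0.0466, edgeR adjusted p = 1.62e-11). In KO cells Ier3 stayed between 106 and 110 CPM in the 4 libraries, with overlapping groups, a log2 fold change of 0.01 and an interval from -0.09 to 0.11. The interaction was -0.91 (SE 0.0663, edgeR adjusted p = 6.69e-09).

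Fos encodes c-Fos, the classical transient partner of c-Jun, and lies on chromosome 12 from 85520664 to 85524047 (ENSMUSG00000021250). The WT soft libraries measured 22.9 and 23.4 CPM and the WT stiff libraries 15.2 and 12.8. Both stiff libraries lay below both soft ones, with a log2 fold change of -0.73 (SE 0.106, edgeR adjusted p = 2.2e-05). The KO libraries measured 16.9 and 16.6 CPM on soft and 15.8 and 14.5 on stiff, a log2 fold change of -0.14 with an interval from -0.36 to 0.09. All 4 KO libraries lay below WT soft, and KO stiff overlapped WT stiff. The interaction was 0.59 (SE 0.151, edgeR adjusted p = 0.00648), and without WT stiff replicate 2 it was 0.46, under the fold limit.

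Fosb, whose product is closely related to c-Fos, was the least abundant of the 10, with 64 to 187 counts per library. It lies on chromosome 7 from 19036621 to 19043976 (ENSMUSG00000003545). In WT it measured 7.20 and 8.00 CPM on soft and 3.42 and 3.25 on stiff. The log2 fold change of -1.18 (SE 0.209, edgeR adjusted p = 0.000173) was the lowest of the 10 genes. In KO cells Fosb was at 3.55 and 4.43 CPM on soft and 4.92 and 3.16 on stiff, with overlapping groups and a wide interval, from -0.42 to 0.49 around 0.03. The interaction was 1.21 (SE 0.301, edgeR adjusted p = 0.00512). It was 0.85 with an adjusted p of 0.0564 in edgeR when KO stiff replicate 1 was left out.

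Fosl1, which encodes FRA-1, was called in neither stiffness comparison. It lies on chromosome 19 from 5497575 to 5505974 (ENSMUSG00000024912). Its WT libraries measured 19.3 and 24.7 CPM on soft and 19.3 and 18.8 on stiff, whereas the KO libraries were at 10.8 and 10.7 on soft and at 11.9 and 11.9 on stiff. All 4 KO libraries lay below all 4 WT libraries. The log2 fold change between stiff and soft was -0.20 in WT (adjusted p = 0.174) and 0.15 in KO (adjusted p = 0.808, edgeR for both). The WT value ran from -0.37 without WT soft replicate 1 (adjusted p = 0.0211 in edgeR) to -0.02 without WT soft replicate 2. The interaction was 0.35 (edgeR adjusted p = 0.139) and was called without WT soft replicate 1 (0.51, adjusted p = 0.0246). Ccdc85b, on the opposite strand, overlaps Fosl1 and had 449.5 counts in the mean library, and how strand entered the authors' counting is not given in the sources used here, so reads of the pair may not be separated.

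The Jun family was more abundant, and none of its 3 genes was called between stiff and soft. Junb (ENSMUSG00000052837, chromosome 8 from 85701113 to 85705347), which encodes a partner that can oppose c-Jun, measured 149.6 and 179 CPM in WT on soft and 224 and 232 on stiff. The groups did not overlap, but the log2 fold change of 0.48 (SE 0.0709, edgeR adjusted p = 2.76e-05) stayed under the fold limit, which it passed without WT soft replicate 2 (0.61) or WT stiff replicate 1 (0.51). In KO cells Junb was at 121 and 126 CPM on soft and 147 and 129 on stiff, a log2 fold change of 0.16 with an adjusted p of 0.658 in edgeR. The interaction of -0.32 had an adjusted p of 0.0236 in edgeR and was also under the fold limit. Prdx2, on the opposite strand, overlaps the 3′ part of Junb and had 3382 counts in the mean library, and its log2 fold change in WT was 0.20 (adjusted p = 0.00467 from edgeR).

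Jun (ENSMUSG00000052684, chromosome 4 from 94937271 to 94940459), which encodes c-Jun, ranged from 146.8 to 155.8 CPM in the 4 WT libraries and from 133 to 147 in the 4 KO libraries. Its log2 fold change between stiff and soft was -0.05 in WT (adjusted p = 0.48) and 0.10 in KO (adjusted p = 0.658, both from edgeR). Jund (ENSMUSG00000071076, chromosome 8 from 71151599 to 71153265), which is expressed more constantly than the other Jun genes, ranged from 135 to 170.3 CPM in WT and from 151 to 165 CPM in KO. Its WT log2 fold change of -0.17 had an adjusted p of 0.0448 in edgeR, and its KO value was 0.02. Junos overlaps Jun on the opposite strand with a mean of 28.25 counts, and Gm11175 overlaps Jund with 0.

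Atf3 (ENSMUSG00000026628, chromosome 1 from 190902493 to 190950236), a stress-induced ATF protein that often acts as a repressor, measured 92.6 and 80.8 CPM in WT on soft and 63.7 and 65.6 on stiff. The log2 fold change was -0.43 (SE 0.0784, edgeR adjusted p = 0.000244), under the fold limit, which it passed without WT soft replicate 2 (-0.52). KO libraries were at 83.1 and 79.2 CPM on soft and at 74.0 and 89.3 on stiff, with overlapping groups. Egr1 (ENSMUSG00000038418, chromosome 18 from 34992876 to 34998037), a zinc finger factor induced by serum response elements, measured 234 and 239 CPM in WT on soft and 195 and 187 on stiff, a log2 fold change of -0.31 (SE 0.0489, edgeR adjusted p = 5.12e-05). In KO cells Egr1 was at 160.1 and 155 CPM on soft and 164 and 150.2 on stiff, with overlapping groups. Both genes had an interaction under the fold limit, 0.44 for Atf3 (adjusted p = 0.00581) and 0.30 for Egr1 (adjusted p = 0.00292, both from edgeR). The Atf3 value passed that limit without WT soft replicate 2 (0.51) or KO stiff replicate 1 (0.56).

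Over the 10 genes, 8 had an adjusted p under 0.05 in WT when the fold limit was set aside, as had 41.0% of all tested genes, and 7 had one for the interaction, as had 29.4%. In KO, 0 of 10 were called by edgeR or by DESeq2. Only Jun and Junb, 2 genes, had an unadjusted p under 0.05 in edgeR, and all 10 log2 fold changes lay between -0.14 and 0.16. The KO stiff and soft libraries did not overlap for Fos, lower on stiff, and for Fosl1, Jun and Junb, higher on stiff. Those of the other members overlapped. How many of all tested genes lacked such an overlap was not counted. The interaction was called in 4 of 10 genes, 2 higher (Fos, Fosb), where 8.64% of all genes were called higher, and 2 lower (Fosl2, Ier3), where 8.21% were. The WT and KO effects are given side by side, and the interaction is by construction their difference.

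**Figure D2:**
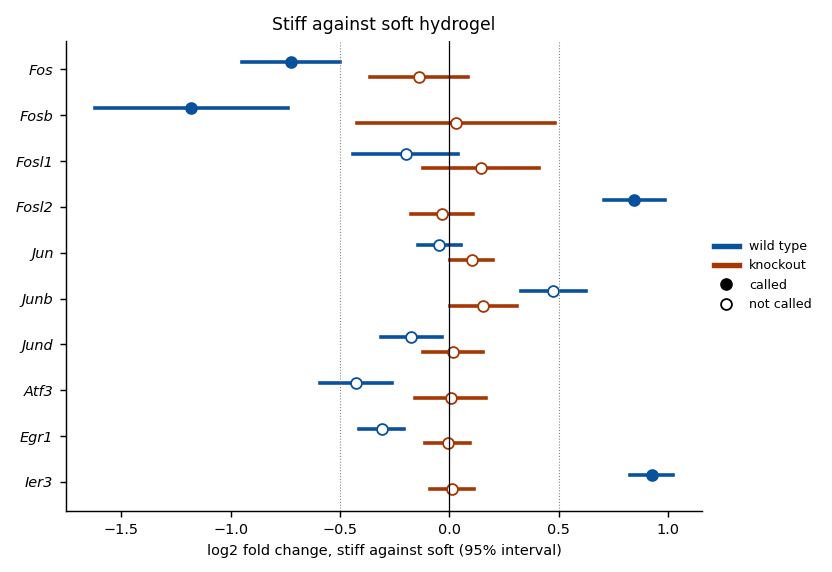
Log2 fold change of stiff against soft (horizontal axis) for the 10 genes in WT and KO, with 95% intervals as bars, filled points for called values and dotted lines at the fold limit of 0.5. WT values spread from -1.18 for Fosb to 0.93 for Ier3, whereas KO values lie between -0.14 and 0.16.

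Markers of other liver cells moved between the same groups. In WT the summed level of 10 endothelial markers, in CPM of the raw library total, was 98.3 to 99.6 on soft and 64.3 to 66.6 on stiff, with 6 of 10 called lower and 0 called higher. The 10 Kupffer cell and macrophage markers summed to 78.0 to 79.4 CPM on soft and 55.6 to 59.7 on stiff, with 4 of 10 called lower. The sum of 10 stellate cell and fibroblast markers was 37.1 to 37.5 and 25.9 to 26.9 CPM, with 3 of 9 tested called lower, 1 called higher and Lrat at 0 in WT stiff. Bile duct markers summed to 203 to 211 CPM on soft and 372 to 373 on stiff, with 3 of 7 tested called higher and 1 lower. In KO the 4 sums were 128 to 132, 115 to 118, 54.6 to 56.1 and 247 to 263 CPM on soft, and 133 to 149, 114 to 116, 56.0 to 59.2 and 247 to 262 on stiff, in the same order, with 0 called in edgeR and in DESeq2. The 13 heat shock and chaperone genes of cell isolation stress summed to 7825 to 8156 CPM in WT on soft and 9056 to 9182 on stiff, with 1 called higher (Hspb1, log2 fold change 1.53) and 1 lower (Hspa1b, -0.93), and to 8274 to 8430 and 8024 to 8315 CPM in KO. Of the 10 hepatocyte markers, 4 were called lower and 0 higher in WT on stiff, where 9.26% and 10.0% of all genes were. Their median log2 fold change was -0.36, and 0 were called in KO. Without Alb, the other 9 summed to 10850 to 10940 CPM in WT on soft and 8387 to 8476 on stiff. The part of these cells and of the isolation stress in the AP-1 values was not tested. In bulk RNA fewer cells of a type and less RNA per cell cannot be told apart.

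Between genotypes, 3 of the 10 genes were lower in KO than in WT on soft hydrogel, where 4.65% of all genes were called lower, and 0 were higher, where 2.02% were. Fosl1 had a log2 fold change of -1.02 (SE 0.118, edgeR adjusted p = 3.93e-06), Fosb of -0.93 (SE 0.202, edgeR adjusted p = 0.00268) and Egr1 of -0.58 (SE 0.0491, edgeR adjusted p = 7.05e-08). The Fosb call was lost without KO soft replicate 1 (-0.78, adjusted p = 0.0601 from edgeR). Fos (-0.47), Junb (-0.41) and Jun (-0.19) had adjusted p values of 0.00298, 0.000444 and 0.00843 in edgeR but stayed under the fold limit. Junb passed it without WT soft replicate 1 (-0.53), which then made 4 of the 10 called lower. Fosl2 (0.11), Ier3 (-0.04), Jund (-0.01) and Atf3 (-0.10) had adjusted p values from 0.319 to 0.967.

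On stiff hydrogel 4 of the 10 genes were lower in KO. Ier3 had a log2 fold change of -0.95 (SE 0.0467, edgeR adjusted p = 5.31e-12), Fosl2 of -0.78 (SE 0.0653, edgeR adjusted p = 1.25e-08), Junb of -0.73 (SE 0.0715, edgeR adjusted p = 1.02e-07) and Fosl1 of -0.68 (SE 0.12, edgeR adjusted p = 0.00012). Over all genes 15.0% were called lower, and 0 of 10 were higher, where 13.7% were. Of these 4, Fosl1 was also called on soft. Atf3 (0.34), Jund (0.18) and Egr1 (-0.28) had adjusted p values of 0.00158, 0.0283 and 0.000111 in edgeR under the fold limit. Fos (0.12) and Fosb (0.28) had intervals from -0.12 to 0.35 and from -0.19 to 0.75. Each pair of genotype and stiffness comparisons shares libraries, so they are not independent of each other.

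**Figure D3:**
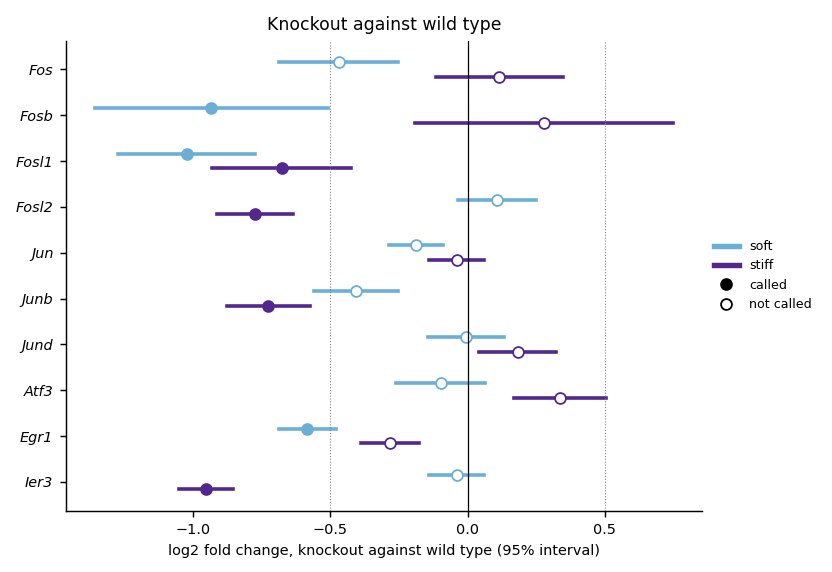
Log2 fold change of KO against WT (horizontal axis) on soft and on stiff hydrogel for the 10 genes, with 95% intervals as bars, filled points for called values and dotted lines at 0.5 on either side. Fosl1 is called lower on both hydrogels, Fosb and Egr1 on soft, and Fosl2, Junb and Ier3 on stiff.

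Ccdc85b, which overlaps Fosl1, was itself lower in KO, by a log2 fold change of -0.67 on soft and -0.96 on stiff (adjusted p = 0.000429 and 1.72e-06 from edgeR). Prdx2, which overlaps Junb, was lower in KO on stiff by -0.33 (adjusted p = 3.34e-05 from edgeR). Whether these reads enter the values of Fosl1 and Junb was not tested. Of the 10 hepatocyte markers 2 were called lower in KO on soft, and 3 higher and 2 lower on stiff. They summed to 91080 to 93960 CPM in WT and 65780 to 66520 in KO, a drop carried by Alb, which encodes albumin and was at 80140 to 85490 CPM in WT and 55430 to 56080 in KO. The other 9 summed to 10850 to 10940 CPM in WT and 10250 to 10430 in KO on soft, and to 8387 to 8476 in WT and 10060 to 10350 in KO on stiff, higher in KO there. Endothelial, Kupffer cell and stellate cell sums were higher in KO than in WT on both hydrogels. Their part in the genotype differences was not tested.

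Levels of different genes were compared in TPM, which divides counts by the deposited gene length and scales each library to the same sum. That length was 9680 bases for Fosl2, 6243 for Fosb, 2352 for Fos and 2033 for Fosl1. For Fosl2 and Fosb it exceeded the longest annotated transcript by more than for Fos and Fosl1. The order of the genes depends on this length, and other lengths were not tried. By the mean over 8 libraries the order was Ier3 (320.9 TPM), Jund (249.2), Junb (192.6), Jun (123.6), Egr1 (112.2), Atf3 (99.2), Fosl1 (21.2), Fos (19.9), Fosl2 (11.0) and Fosb (2.06). The ranges over the 8 libraries overlapped between neighbours in this order, except that Junb (from 145 TPM) lay above Jun (up to 130.9 TPM), Atf3 (from 78.5 TPM) above Fosl1 (up to 32.6 TPM) and Fosl2 (from 8.66 TPM) above Fosb (up to 3.43 TPM). The Jun genes summed to 515 to 623 TPM and the Fos genes to 43.9 to 71.4 TPM over the libraries.

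Within the Fos family the composition shifted with stiffness in WT. Fosl2 made up 13.1% ± 1.40 (SD, n = 2) of the summed Fos family TPM on soft and 27.2% ± 1.14 on stiff, and Fos 39.2% ± 2.54 and 27.3% ± 2.25. The share of Fosl1 was 42.8% ± 3.97 and 43.0% ± 1.09, and that of Fosb 4.83% ± 0.032 and 2.46% ± 0.017. In KO Fosl2 held 21.4% ± 0.295 on soft and 21.1% ± 0.016 on stiff, and Fosl1 31.9% ± 0.179 and 35.7% ± 1.63. The family sum was 67.5 ± 5.56 TPM in WT soft, 57.9 ± 2.37 in WT stiff, 45.9 ± 0.574 in KO soft and 45.6 ± 2.28 in KO stiff, with both KO groups below both WT groups. In the Jun family Junb held 33.4% ± 0.943 in WT soft and 43.3% ± 0.148 in WT stiff, against 28.4% ± 0.319 and 29.95% ± 0.922 in KO (Junb, SD, n = 2). Jund was the largest part in WT soft (44.1%) and in KO (49.4% and 47.4%), and Junb in WT stiff. These shares are descriptions, with no test, and they depend on the gene lengths used.

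**Figure D4:**
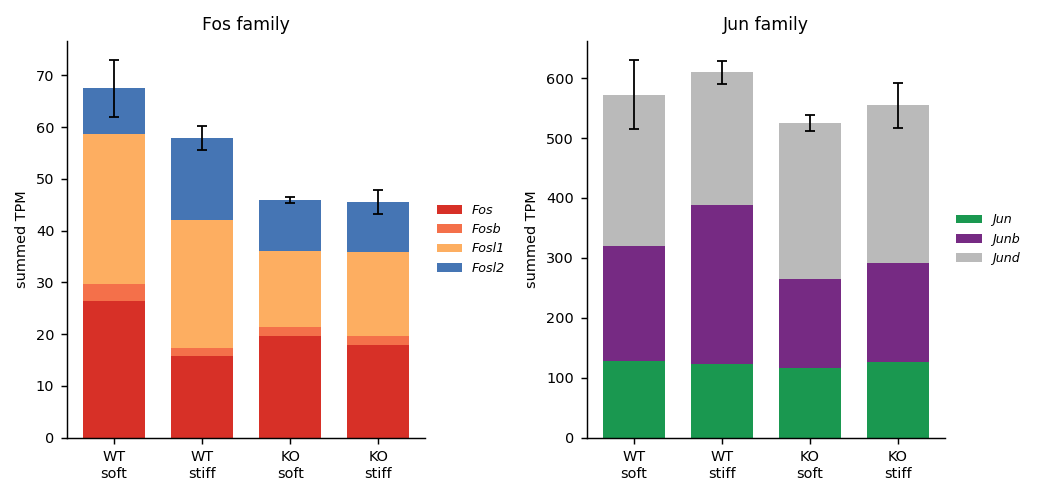
Summed TPM (vertical axis, from 0) of the Fos family (left) and the Jun family (right) in the 4 groups. Coloured segments are group means of each gene and the error bar is the SD of the family sum over 2 libraries. The Fosl2 segment is largest in WT stiff and the Fosl1 segment is smaller in both KO groups than in both WT groups.

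The genes around AP-1 are given by lists, each with the number of tested genes called in edgeR and, in brackets, log2 fold changes. The lists were chosen with earlier results of these data known, so their counts are descriptions and not a test of a list. The counts are to be read against all tested genes, of which 10.0% were called higher and 9.26% lower in WT, and 8.64% higher and 8.21% lower for the interaction. Between stiff and soft in KO, 0 genes of any list were called in edgeR or DESeq2, and from 0 to 3 per list had an unadjusted p under 0.05 in edgeR. Among 16 tested bZIP partners of Jun and Fos, 2 rose in WT on stiff, Jdp2 (1.05), a repressor that dimerizes with Jun, and Maff (0.73), a small Maf protein. Another 3 fell, Atf5 (-0.76), Ddit3 (-0.71), which encodes the stress factor CHOP, and Maf (-0.66). The 2 that rose are a share near the 10.0% of all genes, and the list's median was -0.18, against -0.01 over all tested genes. The interaction called 3 higher (Maf 0.88, Atf5 0.84, Ddit3 0.64) and 1 lower (Maff, -0.74).

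Among 16 other immediate early transcription factors or cofactors, 3 rose in WT (Ier5 0.87, Fhl2 0.62, Csrnp1 0.51) and 4 fell, the largest falls being those of the Krüppel-like factors Klf4 (-1.50) and Klf10 (-1.01) and of Id1 (-0.65). The median was 0.06. The interaction called 3 higher (Klf4 1.48, Klf10 1.04, Id1 0.63) and 3 lower (Ier5 -0.80, Klf6 -0.54, Csrnp1 -0.54).

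Of 22 immediate early genes that encode no transcription factor, 9 rose in WT and 1, Zfp36 (-0.74), which encodes the mRNA-destabilizing protein tristetraprolin, fell, where 10.0% and 9.26% of all genes did, and the median was 0.41. The 3 largest rises were those of Arc (2.59), at under 1 CPM in all groups, the chemokine gene Ccl2 (2.45), from 185 to 1007 CPM, and the growth arrest gene Gadd45g (2.43), from 6.30 to 33.1 CPM. The interaction called 10 lower, led by Arc (-2.97), Ccl2 (-2.55) and Gadd45g (-2.40), and 1 higher, Zfp36 (0.84), where 8.21% and 8.64% of all genes were called, with a median of -0.33 against 0.02 over all tested genes.

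Of 10 dual-specificity phosphatases, which switch off the MAP kinases that feed AP-1, 4 rose in WT, among them Dusp7 (1.02), Dusp14 (1.01) and Dusp5 (0.75), and Dusp4 fell (-1.70), with a median of 0.18. The interaction called 4 lower (Dusp7 -1.19, Dusp14 -1.07 and Dusp5 -0.76 among them) and Dusp4 higher (1.82). Of 24 kinases and factors that act on AP-1, 20 were not called in WT, and the median was -0.05. The ternary complex factor genes Elk3 (1.30) and Elk1 (0.57) rose, and Map3k5 (-1.02), a kinase of the JNK and p38 pathways, and the serum response factor coactivator gene Mrtfb (-0.58) fell. The interaction called Map3k5 (1.07) and Mrtfb (0.69) higher and Elk3 (-1.11) and Elk1 (-0.70) lower.

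Of 25 tested genes with known AP-1 sites, 8 rose and 7 fell in WT, where 10.0% and 9.26% of all genes did, with a median of 0.13. The highest were Ccl2 (2.45, also in the immediate early list), the cyclin gene Ccnd1 (1.81) and the urokinase receptor gene Plaur (1.37). The lowest were the metallothionein gene Mt2 (-2.79, SE 0.932), at 2.93 CPM on soft and 0.397 on stiff, Il1rn (-1.11) and Gclc (-0.97), which encodes a subunit of the glutathione synthesis enzyme. The interaction called 6 lower (Ccl2 -2.55, Ccnd1 -1.89 and Plaur -1.48 the lowest) and 7 higher (Mt2 4.81, Il1rn 1.12 and Mmp12 0.98 the highest), where 8.21% and 8.64% of all genes were called. The Mt2 value had an SE of 1.29 and rests on low levels, with KO means of 0.511 CPM on soft and 2.12 on stiff.

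Of the 8 YAP, TAZ, TEAD and cofactor genes, 6 rose in WT on stiff, with Vgll3 (3.30, from 0.105 to 1.16 CPM), Tead2 (1.70) and Tead4 (1.04) the highest, and the median was 0.79. The interaction called 7 lower, Yap1 (-0.52) and Wwtr1 (-0.76) among them, and 0 higher. Yap1 and Wwtr1 are the deleted genes, so their KO values check the deletion. Neither these values nor the interaction of these genes is a separate result.

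**Figure D5:**
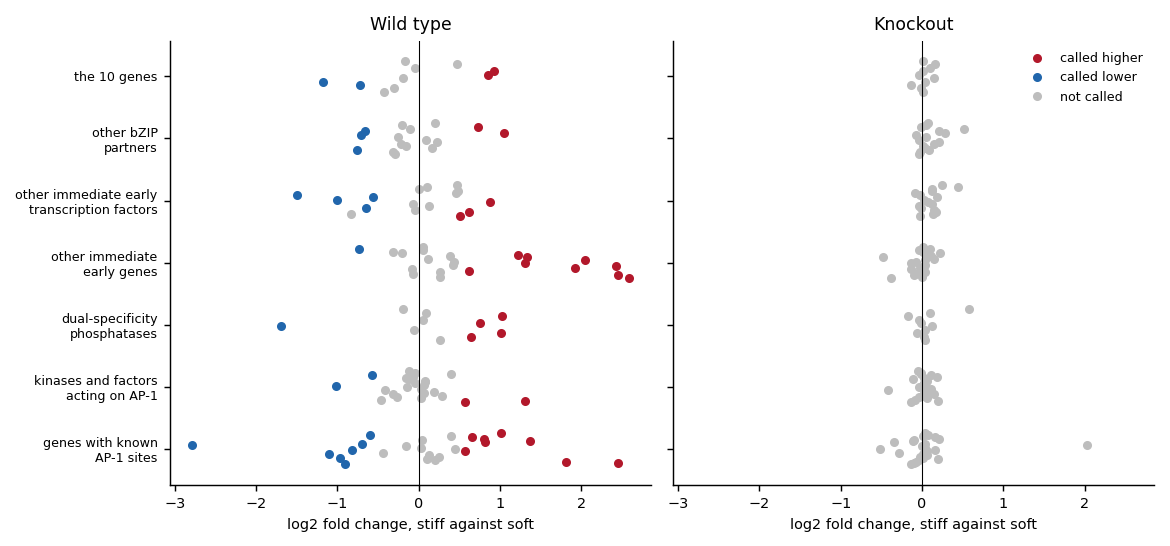
Log2 fold change of stiff against soft (horizontal axes) in WT (left) and KO (right) for the 10 genes and 6 related lists, 1 point per tested gene, with called genes in colour. In WT genes are called in both directions in each list, and in KO no gene of these lists is called.

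Of all tested genes, 2.02% were higher and 4.65% lower in KO on soft, and 13.7% and 15.0% on stiff. Beside these shares the list counts are descriptions only, because the lists were chosen with earlier results of these data known. From the 22 immediate early genes that encode no transcription factor, 9 were lower in KO on soft and 13 on stiff, with 0 higher on either. Of the 25 genes with known AP-1 sites, 9 were lower and 1 higher on soft, and 12 were lower and 7 higher on stiff. Of the 16 bZIP partners, 1 was higher and 0 lower on soft, and 4 were higher and 2 lower on stiff. Of the 16 other immediate early transcription factors or cofactors, 1 was higher and 3 lower on soft, and 5 were higher and 7 lower on stiff.

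The tested genes whose log2 CPM followed each member most closely over the 8 libraries were found among 10037 genes with a mean of at least 100 counts. Pearson's r was 0.999 between Ier3 and Msn, which encodes moesin, and 0.998 and 0.997 with Stip1 and Anxa5. Fosl2 was nearest to Las1l (0.996), Kank1 (0.994) and Rpa1 (0.993), and Junb to Paqr7 (0.998), Pip4k2b (0.996) and Nhsl1 (0.993). Like Fosl2 and Ier3, the genes Msn (219.9 to 636 CPM), Stip1 (134 to 243) and Kank1 (31.8 to 55.7) had higher means in WT stiff than in WT soft, and KO means near WT soft.

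Fosl1 was nearest to Slc26a1 (0.994), Sardh (0.992) and Lgals3 (0.989), and Egr1 to Proz (0.992), Plg (0.991) and Ces2e (0.988), all of them lower in both KO groups than in both WT groups by their means. Fos was nearest to Maob (0.982), Chac1 (0.973) and Saa1 (0.971), Fosb to Aldh18a1 (0.964), Zfp358 (0.961) and Upb1 (0.954), and Atf3 to Cep95 (0.981), Paip2 (0.979) and Sephs2 (0.976). Jun was nearest to Os9 (0.977), Heg1 (0.959) and Peli2 (0.957), and Jund to Fbxo31 (0.968), Nop53 (0.959) and Dido1 (0.95).

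Between the members, r was highest for Fosl2 with Ier3 (0.984), Fos with Fosb (0.925) and Fosl1 with Egr1 (0.924), and lowest for Fosl2 with Atf3 (-0.887). These are descriptions over 8 libraries in 4 groups. The points share groups and library depth, so they are not 8 independent conditions.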

How the data were processed

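RNA was sequenced from 8 libraries of primary hepatocytes. According to the study's methods and the submitters' processing notes, paired-end reads were aligned by the authors with HISAT2 2.0.5 and assigned to genes with featureCounts, and raw counts were deposited with gene length and position, 1 column per library. The notes also name DESeq2 1.20.0, edgeR 3.22.5, GATK 4.1.4.1 and the build mm9. The positions in the table differ from the GRCm38 annotation used here for all 10 genes and are printed as deposited, and whether they are those of mm9 was not checked. The treatment of strand and of reads that match several genes is not given in the sources used here, and of the 64-base windows of each member's longest transcript 0% occur in another gene.

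The test was that of edgeR 4.0.16 under R 4.3.3 (filterByExpr by group, TMM, glmQLFit on all 8 libraries with 1 term per group, glmQLFTest, 4 residual degrees of freedom). A gene was called at a Benjamini-Hochberg adjusted p under 0.05 over 14279 tested genes with an absolute log2 fold change over 0.5. A normalized CPM is a count over the TMM-scaled library total, and log2 CPM had a prior count of 2. Groups came from the genotype and hydrogel in the labels. Comparisons were stiff against soft in each genotype, their difference, and KO against WT on each hydrogel. Alternatives were DESeq2 1.42.0, other scaling, filters and fold limits, robust empirical Bayes, fits of only 4 libraries, a replicate block and each library left out. The steps were tested on simulated data.

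The text names all 10 genes, at most the 3 highest and 3 lowest called genes of each list in WT stiff against soft and in the interaction, overlapping genes, deletion checks and the 3 genes most like each member. The members and lists were chosen with earlier results of these data known. Plots used matplotlib 3.10.9 under Python 3.11.15.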

Additional observations from a re-analysis of the deposited data

Results flagged for a closer look

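The effect of the stiff hydrogel differed between KO and WT, by the interaction term of edgeR's quasi-likelihood model with an adjusted p under 0.05, in 7 of the 10 genes, as it did in 29.4% of all tested genes. KO minus WT on the log2 scale, the difference was 0.59 for Fos, 1.21 for Fosb, 0.44 for Atf3 and 0.30 for Egr1, which were lower on stiff than on soft in WT, and -0.88 for Fosl2, -0.91 for Ier3 and -0.32 for Junb, which were higher on stiff in WT. Junb, Atf3 and Egr1 were under the fold limit. With 2 libraries per group no search for single libraries far from their group was possible.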

How the results depend on the processing

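Of 940 alternative values for the members, 878 kept the direction and the side of the limits, 15 fell under them, 20 passed them and 27 changed sign, all 27 for genes that were not called. Without a minimum fold change, 8 members were called in WT stiff against soft (5 lower), 7 in the interaction (4 higher), 6 in KO against WT on soft (6 lower) and 7 on stiff (2 higher). With an absolute log2 fold change over 1 there were 1 (0 higher, 1 lower), 1 (1 higher, 0 lower), 1 (1 lower) and 0 (0 lower). Over all genes these 2 limits gave 5859 and 1244 calls in WT stiff against soft (2754 at the limit used), 4192 and 1040 in the interaction (2405), 2624 and 353 in KO against WT on soft (952) and 7299 and 2097 on stiff (4103), while the 3 calls in KO stiff against soft ran from 1 to 50, the highest with every gene with a count. With each library left out, the interaction called 1 to 3 members higher. Sign changes in KO stiff against soft were Atf3 -0.005 and Ier3 0 with every gene with a count, and Atf3 -0.001 with only the 4 libraries compared. In KO against WT, with library size only, they were Jund 0.048 and Ier3 0.015 on soft and Jun 0.018 on stiff, and Jund on soft was 0.007 with upper quartile factors and 0.004 with every gene with a count. With libraries left out, KO stiff against soft ranged from -0.328 to 0.303 for Fosb, -0.083 to 0.002 for Fosl2, -0.049 to 0.068 for Jund, -0.141 to 0.135 for Atf3, -0.074 to 0.044 for Egr1 and -0.012 to 0.028 for Ier3. KO against WT ranged on soft from -0.121 to 0.116 for Jund and -0.189 to 0.012 for Atf3, and on stiff from -0.015 to 0.239 for Fos and -0.083 to 0.548 for Fosb. Ordering the groups by CPM instead of TPM kept 5 of 6 pairs for Jun, 5 for Jund and 4 for Ier3. The cause of these changes was not tested. Samples with the same replicate number did not deviate together (correlations -0.101 to 0.042), and with a replicate block the members called were 4, 0, 4, 3 and 4 in the 5 comparisons, as without it. With 2 libraries per group an arm left with 1 library is assumed to vary like the others, and for Fosb the depth of 64 to 187 counts limits the precision.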
